A study of Mus musculus with 4 samples.

Results

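The cells described here are wild-type MD4 B cells, marked by CD45.1, that shared a recipient mouse with CD45.2+ partner cells, either wild-type or DOCK8-deficient. They were taken from the sort of CD45.1+ cells. Barcodes needed 100 to 5500 genes and under 10% mitochondrial counts, and each was assigned to the recipient of its leading hashtag if that hashtag outnumbered the runner-up by 3-fold or more. This left 4453 of 5232 barcodes (85.1%), out of 13284 cells kept in both sorts. The WT-group recipients 1, 2 and 3 held 421, 626 and 1250 of these cells, and the DOCK8-deficient-group recipients 1, 2 and 3 held 654, 545 and 957. Of the barcodes that passed the cell filter, 330 had no hashtag counts and 300 fell short of the 3-fold rule.

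MD4 B cells carry a B cell receptor transgene that binds hen egg lysozyme (HEL). These CD45.1+ cells, *Dock8* wt/wt and not labelled as carrying the BCL2 transgene, were mixed with CD45.2+ BCL2.Tg MD4 cells, which express a B cell-restricted BCL2 transgene and were *Dock8* wt/wt in the WT group and *Dock8* cpm/cpm in the DOCK8-deficient group. The cpm allele is an ENU-induced mutation described as DOCK8-null. The mixtures were given to CD45.1+ wild-type recipients, which were immunized with HEL-conjugated sheep red blood cells, and splenic HEL+ CD95+ cells were sorted on day 8. Since the recipients were themselves CD45.1+, the transferred cells of this sort were set apart from host cells by HEL binding. The mice were age-matched and of both sexes. Each sort gave 1 mRNA and 1 hashtag library, so that all 6 recipients shared a library and the recipient is the replicate. The groups are those of the hashtag labels. A note of the study describes its WT cells as male and its DOCK8-deficient cells as female, whereas by these labels the CD45.2+ cells of the WT group had more *Xist* and fewer Y-linked counts than those of the DOCK8-deficient group. The same labels gave 7961 kept CD45.2+ cells to the WT group and 870 to the DOCK8-deficient group, with 1637 and 80 plasma cells among them. Only 8831 of 24241 CD45.2+ barcodes (36.4%) were kept. Every direction given here rests on the hashtag labels. Wherever a p-value is given, it measures the spread between these recipients.

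In a germinal center (GC), activated B cells compete for antigen and for help from follicular T cells, move between a dark zone of division and a light zone of selection, and leave as memory B cells or as antibody-secreting plasma cells. DOCK8 is a guanine nucleotide exchange factor for CDC42 that supports the actin cytoskeleton and the immune synapse. A wild-type cell that competes with DOCK8-deficient partners is genetically the same as a wild-type cell that competes with wild-type partners. Comparing these bystander cells therefore asks whether wild-type cells differ with the group of their partners. Besides genotype, the partners of the 2 groups differed in *Xist* and Y-linked counts and in the number of cells kept, 7961 against 870. The design does not tell these apart from the genotype of the partners.

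The recipient of each cell was read from a hashtag oligo of 15 bases, which is the only link between a cell and its group. The sequences are shown because every comparison rests on telling them apart, and the closest pair differed at 8 positions.
WT-group recipient 1, B0301: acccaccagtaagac
WT-group recipient 2, B0302: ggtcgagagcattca
WT-group recipient 3, B0303: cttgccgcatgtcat
DOCK8-deficient-group recipient 1, B0304: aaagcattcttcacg
DOCK8-deficient-group recipient 2, B0305: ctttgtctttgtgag
DOCK8-deficient-group recipient 3, B0306: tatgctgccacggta

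The depth of the summed cells ran from 2621582 unique molecular identifiers (UMIs) in WT-group recipient 1 to 9911574 in WT-group recipient 3. Median UMIs per cell ranged from 4616 to 7089, and the groups overlapped. Markers of B cell identity were present, with all 10 listed genes tested, and *Dock8* itself was at 74.5, 80.7 and 78.9 CPM, the count scaled to a common total of 1000000 UMIs, in the WT group and 98.4, 80.6 and 82.3 CPM in the DOCK8-deficient group. That difference did not pass the test (log2 fold change 0.15, SE 0.109, edgeR adjusted p = 0.933). Cells with UMIs from at least 2 T cell markers numbered 36 in the WT group and 24 in the DOCK8-deficient group. CPM values of a gene with a test are scaled by TMM factors, and all log2 fold changes are given as DOCK8-deficient group over WT group.

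Plasma cells were defined by *Jchain*, the chain that joins polymeric antibody, at 100 or more counts per 10000. In the WT group they made up 18.1%, 27.6% and 33.4% of the bystander cells, 76, 173 and 417 cells. In the DOCK8-deficient group they made up 11.3%, 23.5% and 21.2%, 74, 128 and 203 cells. The groups overlapped. The means were 26.3% ± 7.73 and 18.7% ± 6.47 (SD, n = 3 recipients each), a difference of -7.68 percentage points (two-sided exact permutation test, p = 0.3, where the smallest p that 3 against 3 allows is 0.1). It was -4.00 points without DOCK8-deficient-group recipient 1, -11.8 without WT-group recipient 1 and -11.2 with the cells that HTODemux, another way to assign hashtags, called singlets. HTODemux kept 69, 123 and 280 plasma cells in the WT group and 34, 63 and 59 in the DOCK8-deficient group. Plasma cells with a *Bcl2* UMI, described below, were also left out, a choice made after seeing the data. The means were then 20.4% ± 9.24 and 17.5% ± 6.08, a difference of -2.87 points (exact permutation test, p = 0.7). Of all 4453 cells, 306 lay between 50 and 200 counts of *Jchain* per 10000, near the limit that divides the classes.

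**Figure D1:**
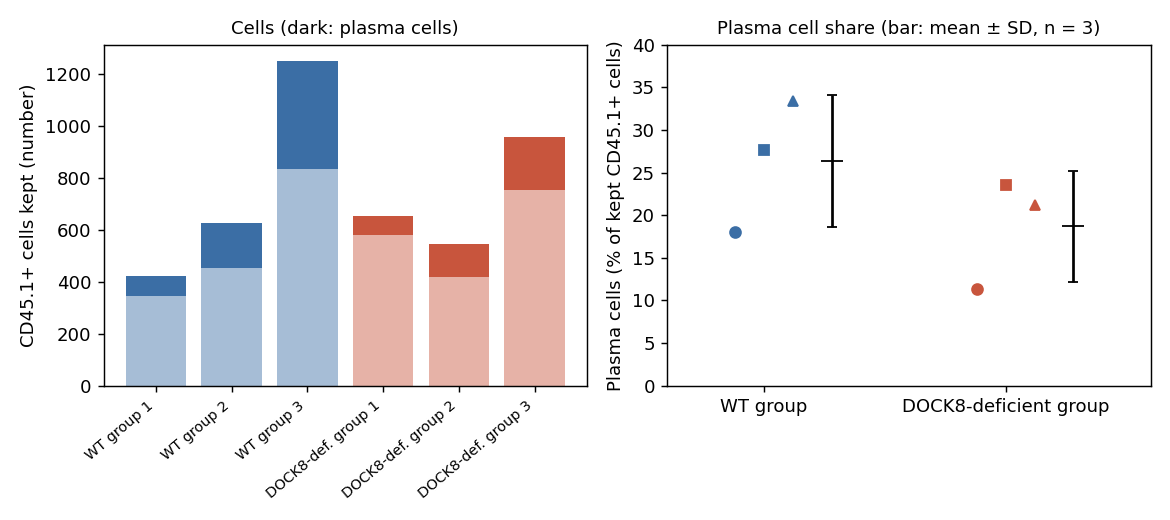
Left, number of kept CD45.1+ cells in each recipient, with plasma cells in the dark part of the bar. Right, plasma cells as percent of these cells, with a point for each recipient and the mean ± SD of 3 recipients beside them; the groups overlap, between 18.1% and 33.4% in the WT group and between 11.3% and 23.5% in the DOCK8-deficient group.

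The plasma cells of the CD45.1+ sort differed between the groups in 11 genes, of which 10 are described. *Bcl2*, *Trf*, *Plac8*, *Herpud1* and *Bcl2l11* were lower in the DOCK8-deficient group, and *Stmn1*, *Snrpd1*, *Hsp90aa1*, *Ran* and *Ptma* were higher. With the plasma cells that held a *Bcl2* UMI left out, 0 genes were called. Not all of those cells had the markers of bystander cells, as described below. The 11 are the calls of edgeR's quasi-likelihood test on counts summed per recipient, at a Benjamini-Hochberg adjusted p under 0.05, and make up 0.164% of 6692 genes tested apart from sex-linked ones, 0.0897% for the 6 that were higher and 0.0747% for the 5 that were lower. An unadjusted p under 0.05 was found for 636 genes, or 9.5%. Called genes were named only where the groups did not overlap, as was so in 1041 of the 6692 genes, or 15.6%. DESeq2 called 41 genes, 10 of them among the 11. In sums of this kind, fewer cells of a type and less RNA per cell cannot be told apart.

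*Bcl2*, which encodes the survival factor BCL2 (chromosome 1 of GRCm38, 106538178 to 106714274, minus strand), stood at 259, 287 and 85.3 CPM in the plasma cells of the WT group. In the DOCK8-deficient group it stood at 23.0, 26.3 and 23.3 CPM. Every WT-group recipient was above every DOCK8-deficient-group recipient, although WT-group recipient 3 was well below the other two. This gave a log2 fold change of -3.04 (SE 0.372, edgeR adjusted p = 0.00260). Without WT-group recipient 1 the adjusted p from edgeR was 0.0506, and the gene was called in the other 5 fits that left out a recipient.

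*Bcl2l11* encodes BIM, a pro-apoptotic protein that BCL2 binds (chromosome 2, 128126038 to 128162547, plus strand). Its level was 697, 775 and 924 CPM in the WT group and 505, 455 and 526 CPM in the DOCK8-deficient group, without overlap (log2 fold change -0.70, SE 0.104, edgeR adjusted p = 0.0108). It was not called without DOCK8-deficient-group recipient 1 or recipient 2, with adjusted p up to 0.0804 from edgeR. Of the 14 listed genes of the BCL2 family, 9 were tested in plasma cells, of which *Bcl2* and *Bcl2l11* were the 2 called lower, beside 0.0747% of all genes, and 4 had a log2 fold change above 0. The list's median log2 fold change was -0.01, beside a median of -0.0023 over all genes.

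*Trf*, which encodes the iron carrier transferrin (chromosome 9, 103204001 to 103230444, minus strand), was at 40.4, 41.0 and 42.9 CPM in the WT group and at 13.3, 19.3 and 11.6 CPM in the DOCK8-deficient group. The recipients of the WT group lay close together and all stood above the other group (log2 fold change -1.51, SE 0.200, edgeR adjusted p = 0.00366). *Trf* was called with any 1 recipient left out. *Plac8* (chromosome 5, 100553725 to 100572245, minus strand) was at 254, 304 and 148 CPM against 53.1, 68.7 and 116 CPM (log2 fold change -1.46, SE 0.252, edgeR adjusted p = 0.0278). *Herpud1*, a component of the degradation of misfolded endoplasmic reticulum (ER) proteins (chromosome 8, 94386438 to 94395377, plus strand), was at 437, 384 and 445 CPM against 227, 214 and 322 CPM (log2 fold change -0.72, SE 0.133, edgeR adjusted p = 0.0371). *Plac8* and *Herpud1* were not called without WT-group recipient 1, DOCK8-deficient-group recipient 1 or DOCK8-deficient-group recipient 2.

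Among the genes that rose, *Stmn1* encodes stathmin, which destabilizes microtubules and is high in dividing cells (chromosome 4, 134468320 to 134473843, plus strand). It was at 105, 103 and 130 CPM in the WT group and at 246, 222 and 168 CPM in the DOCK8-deficient group (log2 fold change 0.86, SE 0.142, edgeR adjusted p = 0.0242). *Hsp90aa1*, a cytosolic chaperone (chromosome 12, 110690605 to 110702728, minus strand), was at 114, 105 and 135 CPM against 198, 180 and 194 CPM. *Ran*, the GTPase of nuclear transport, was at 165, 154 and 138 CPM against 232, 232 and 209 CPM. In none of these did the groups overlap, as in 15.6% of all genes.

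*Ptma*, which encodes the nuclear protein prothymosin alpha, was at 1132, 1060 and 1031 CPM in the WT group and 1762, 1587 and 1359 CPM in the DOCK8-deficient group. *Snrpd1*, a core protein of the spliceosome, was at 68.1 ± 3.17 CPM against 112 ± 12.4 CPM (SD, n = 3 each). The groups did not overlap in either gene, nor in 15.6% of all genes. The log2 fold changes of *Hsp90aa1*, *Ran*, *Ptma* and *Snrpd1* were 0.67, 0.58, 0.55 and 0.69, with adjusted p between 0.0258 and 0.0371 from edgeR. *Hspa8*, a cytosolic chaperone of the HSP70 family with the next smallest p, was at 151, 176 and 152 CPM against 201, 302 and 259 CPM and did not pass (log2 fold change 0.68, edgeR adjusted p = 0.0517). The 5 described genes that rose were called in 1 to 3 of the 6 fits that left out a recipient, and none of them without WT-group recipient 1, DOCK8-deficient-group recipient 1 or DOCK8-deficient-group recipient 2.

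**Figure D2:**
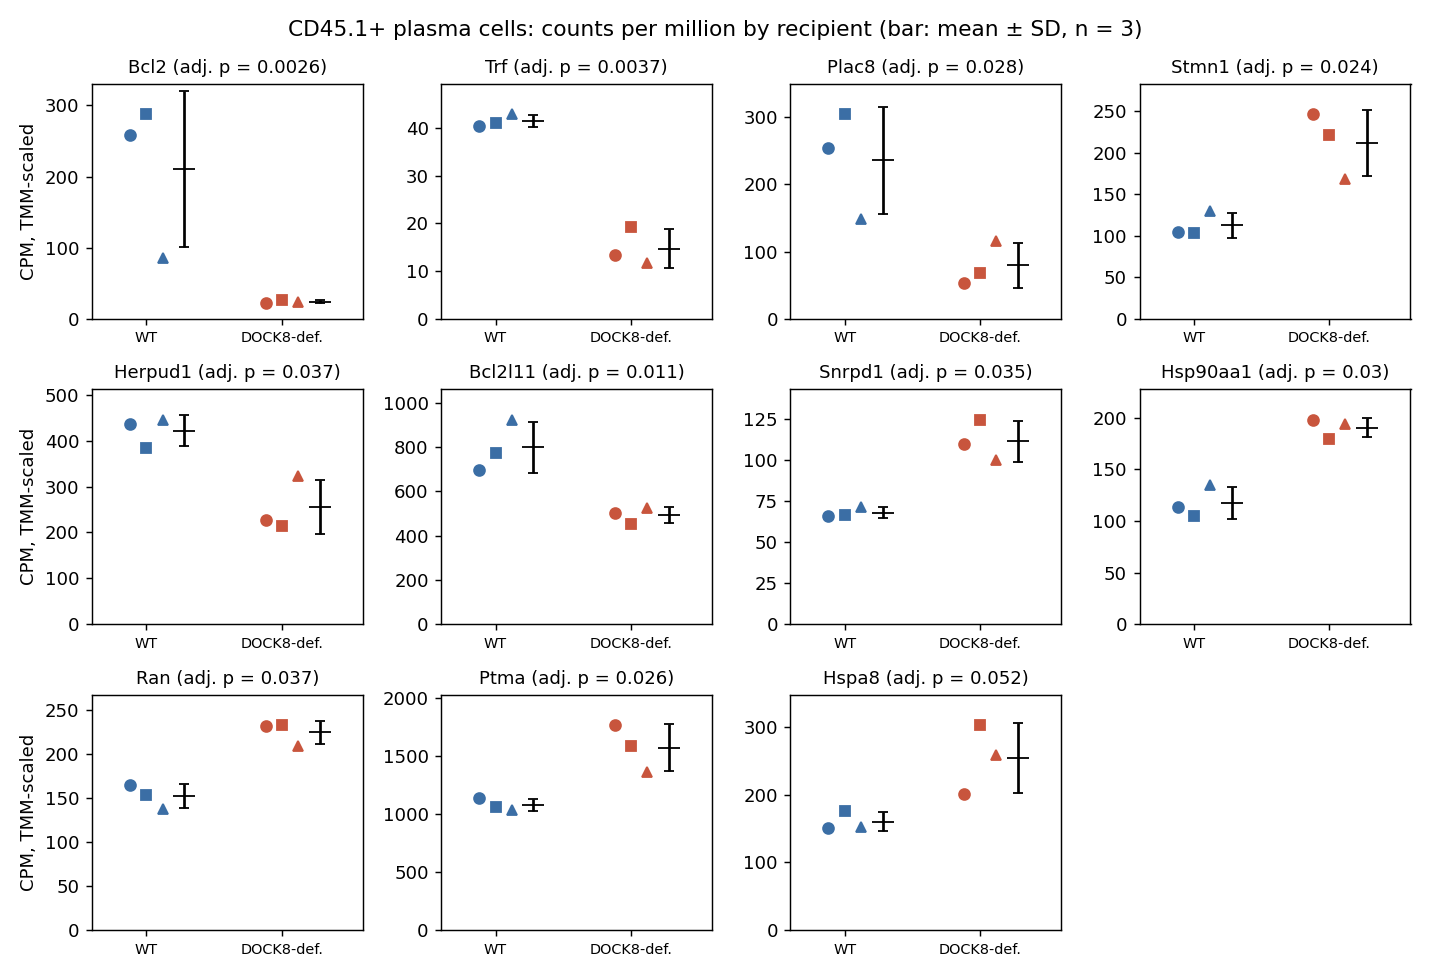
CPM of 10 genes called in CD45.1+ plasma cells and of Hspa8, with a point for each recipient and the mean ± SD of 3 recipients beside them; each panel has its own axis from 0. No panel has overlapping groups, which was a condition for naming the called genes and held for 15.6% of all genes. Bcl2 ranges from 85.3 to 287 CPM in the WT group against 23.0 to 26.3 CPM in the DOCK8-deficient group.

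The count of called genes rested on single recipients. It was 2 without WT-group recipient 1, 18 without WT-group recipient 2 and 40 without WT-group recipient 3. Without DOCK8-deficient-group recipients 1, 2 or 3 it was 4, 3 and 25. With HTODemux singlets it was 14, of which 6 were among the 11. It was 4 with *Jchain* limits of 50 or of 200, and 2 without the 5% of cells with most UMIs.

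The *Bcl2* counts came from a minority of the plasma cells. In the WT group, 21 of 76, 56 of 173 and 43 of 417 plasma cells had 3 or more *Bcl2* UMIs, or 27.6%, 32.4% and 10.3%, with 95% binomial confidence intervals (Wilson) of 18.8% to 38.6%, 25.8% to 39.7% and 7.75% to 13.6%. In the DOCK8-deficient group the numbers were 3 of 74, 5 of 128 and 7 of 203, or 4.05%, 3.91% and 3.45%, with intervals of 1.39% to 11.3%, 1.68% to 8.82% and 1.68% to 6.95%. The means were 23.4% ± 11.6 and 3.80% ± 0.316 (SD, n = 3 each). After each cell was thinned to 2000 UMIs, 28.4%, 28.3% and 9.88% of the plasma cells of the WT group and 4.05%, 3.94% and 4.43% of those of the DOCK8-deficient group had a *Bcl2* UMI, with 4 and 1 shallower cells left out. Among non-plasma bystander cells 0.133% to 1.45% had 3 or more *Bcl2* UMIs.

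Such *Bcl2* levels were the rule among the CD45.2+ plasma cells, which carry the BCL2 transgene. There, 69.9% ± 1.68 of plasma cells had 3 or more *Bcl2* UMIs in the WT group and 71.3% ± 5.20 in the DOCK8-deficient group (SD, n = 3 each). Gene counts do not tell whether a *Bcl2* UMI came from the transgene or from the endogenous gene. The CD45.2+ cells made up 7961 of the kept cells in the WT group and 870 in the DOCK8-deficient group, so the group with more *Bcl2*-high bystander plasma cells was also the group with more kept CD45.2+ cells. Of the 23467 CD45.2+ barcodes that passed the cell filter, 9028 had no hashtag counts and 5608 fell short of the 3-fold rule. The group of those barcodes is not known.

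**Figure D3:**
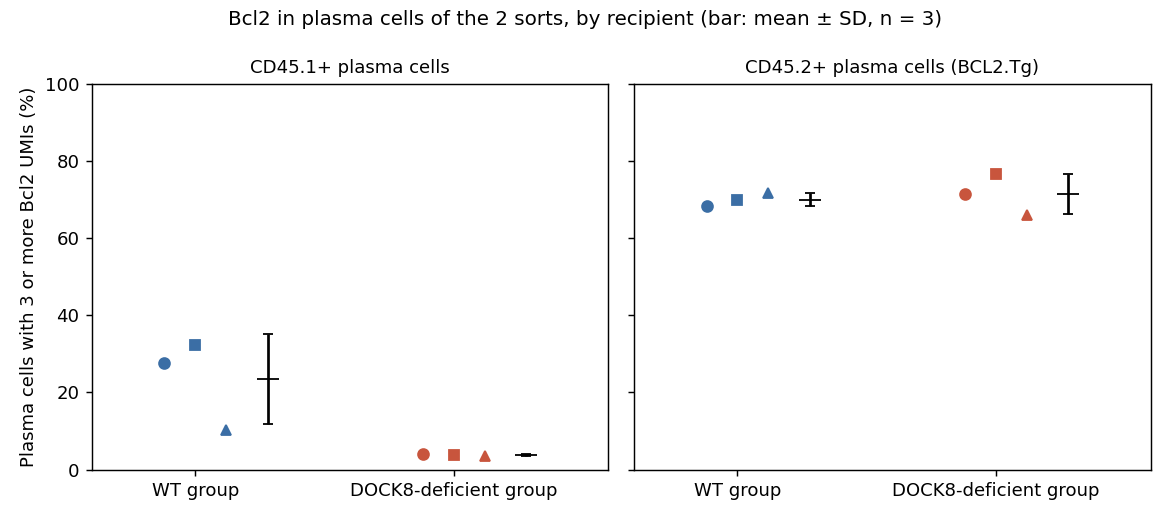
Percent of plasma cells with 3 or more Bcl2 UMIs in the CD45.1+ sort (left) and in the CD45.2+ sort, whose cells carry the BCL2 transgene (right), with a point for each recipient and the mean ± SD of 3 recipients. CD45.1+ plasma cells range from 10.3% to 32.4% in the WT group and from 3.45% to 4.05% in the DOCK8-deficient group, and CD45.2+ plasma cells from 66.1% to 76.5%.

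Sex-linked genes were also read in these cells. In CD45.2+ plasma cells, *Xist*, the RNA of the inactive X chromosome, was at 860, 940 and 928 CPM (without TMM factors) in the WT group, against 133, 95.3 and 169 CPM in the DOCK8-deficient group. In bystander plasma cells without a *Bcl2* UMI, *Xist* was at 679, 779 and 864 CPM in the WT group and 767, 849 and 757 CPM in the DOCK8-deficient group. The 120 bystander plasma cells of the WT group with 3 or more *Bcl2* UMIs had *Xist* at 742, 684 and 762 CPM. The 15 such cells of the DOCK8-deficient group had it at 68.5, 0 and 0 CPM, from 2, 0 and 0 *Xist* UMIs, where a count of 0 allows at most 70.2 and 45.5 CPM. This lay below the *Bcl2*-negative bystander plasma cells of the same recipients, as did the CD45.2+ plasma cells.

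Y-linked UMIs were found in 0 of 2297 bystander cells of the WT group, which allows a share of up to 0.131%, and in 15 cells of the CD45.1+ sort in the DOCK8-deficient group, of which 11 were plasma cells. Of these 15, 14 had no *Xist* UMI and 12 had a *Bcl2* UMI, as did 11 and 10 of the plasma cells. These markers go against the name of bystander cells for them and are those of the CD45.2+ cells of the same recipients. Among CD45.2+ plasma cells the Y-linked genes summed to 8.15, 10.8 and 6.17 CPM in the WT group, against 207, 76.3 and 107 CPM in the DOCK8-deficient group, where there were 7, 17 and 56 such cells. Per cell, 106 of 1637 CD45.2+ plasma cells of the WT group (6.48%) had a Y-linked UMI, and 100 of the 1499 with a *Bcl2* UMI (6.67%). Of these 106 cells, 3 had no *Xist* UMI, against 24 of 49 in the DOCK8-deficient group. A Y-linked UMI thus does not mark the CD45.2+ plasma cells of the WT group. In the CD45.1+ sort of the WT group a Y-linked UMI was found in 0 of 666 plasma cells, which allows a share of up to 0.45%. It was found in 0 of the 151 with a *Bcl2* UMI, which allows up to 1.99%. Where these 151 cells came from was not tested by such counts. In the DOCK8-deficient group 10 of the 30 CD45.1+ plasma cells with a *Bcl2* UMI had one, against 46 of 72 in the CD45.2+ sort. The sorts shared 38 barcodes, of which 13 were kept in both and 3 of those had the same hashtag, and no *Bcl2*-high bystander plasma cell was among the shared barcodes.

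Leaving out the 181 plasma cells with a *Bcl2* UMI, an alternative chosen after the data were seen, left 0 of 6114 genes called by edgeR, while 499 reached an unadjusted p below 0.05. With only the cells of 3 or more *Bcl2* UMIs left out, 1 gene was called. The remaining sums held fewer cells, most of all in WT-group recipients 1 and 2, which lost 29 of 76 and 67 of 173 plasma cells.

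The other genes described did not change direction. *Herpud1* had a log2 fold change of -0.72 without these cells (SE 0.131, edgeR adjusted p = 0.138), the same size as with them. *Trf* was at -1.36 (SE 0.232, edgeR adjusted p = 0.125), which is 90.1% of its log2 fold change over all plasma cells. *Bcl2l11* and *Plac8* moved most, to -0.43 and -0.84, or 61.4% and 57.6%. The genes that rose ranged from 0.42 for *Ptma* to 0.65 for *Stmn1*, or 74.9% to 84.8% of their former size.

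The *Bcl2*-high bystander plasma cells of the WT group differed in level from the *Bcl2*-negative ones of the same recipients in several of these genes. *Plac8* was at 428 ± 181 CPM in the former and 144 ± 14.7 CPM in the latter (SD, n = 3), and at 437 ± 90.1 CPM in CD45.2+ plasma cells. *Bcl2l11* was at 1219 ± 66.1, 661 ± 162 and 955 ± 134 CPM in the same 3 classes. Each was higher in the *Bcl2*-high cells of 3 of 3 recipients. *Stmn1* was at 25.7 ± 20.3 CPM in *Bcl2*-high cells, 130 ± 8.43 CPM in *Bcl2*-negative cells and 156 ± 23.8 CPM in CD45.2+ plasma cells, so that it was low in *Bcl2*-high cells beside both. The CD45.2+ plasma cells were not selected by *Bcl2*, unlike the other classes. Their mean *Bcl2* was 537 CPM in the WT group, against 934 CPM in the *Bcl2*-high bystander cells. The part of CD45.2+ cells in the differences of the CD45.1+ sort was not tested beyond these values.

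**Figure D4:**
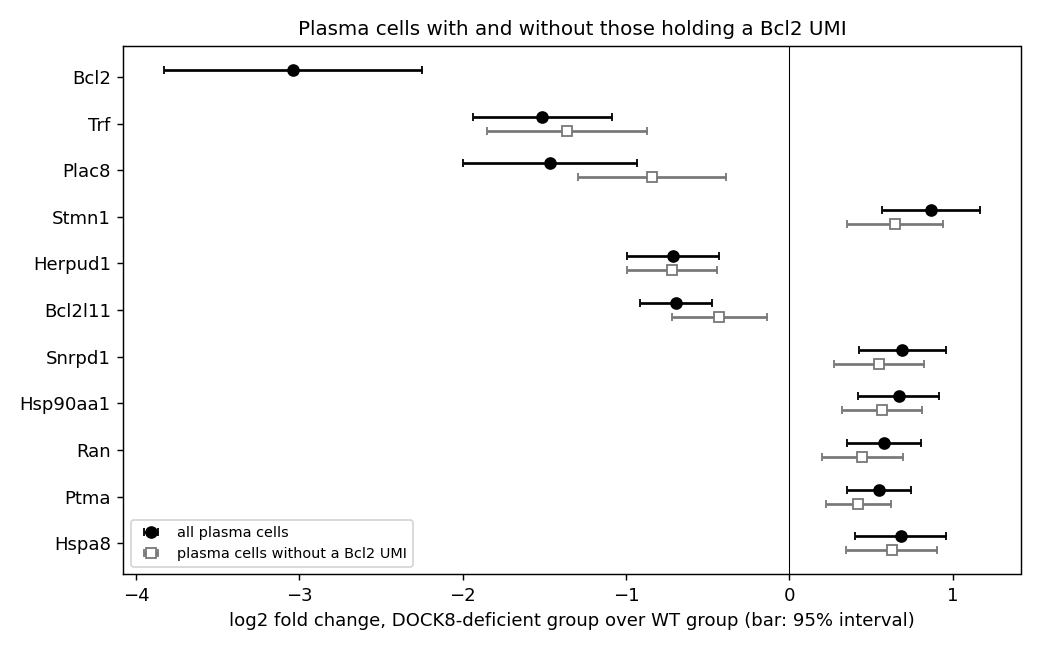
Log2 fold change (DOCK8-deficient group over WT group) with its 95% interval for 11 genes in all CD45.1+ plasma cells (filled) and in the plasma cells without a Bcl2 UMI (open), 3 recipients per group. Bcl2 has no open symbol, the other 10 genes keep their direction, Herpud1 stays at -0.72, and Plac8 moves from -1.46 to -0.84.

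Among gene lists, cytosolic heat shock genes, which encode chaperones, had a log2 fold change above 0 in plasma cells in each of the 10 members tested, of 12, against 49.6% of all genes. The list's median log2 fold change was 0.44, beside -0.0023 over all genes, and 1 member, *Hsp90aa1*, was called. The summed level was 916 to 1003 CPM in the WT group and 1366 to 1519 CPM in the DOCK8-deficient group. Its 6 members with an unadjusted p under 0.05 compare with 4.87% of all genes in that direction. Without the *Bcl2*-positive cells the list's median was 0.41, with 5 of 10 members at an unadjusted p under 0.05. *Hspd1* and *Hsp90ab1* had log2 fold changes of 0.72 and 0.50 and did not pass (edgeR adjusted p = 0.0632 and 0.0731). The direction was not particular to plasma cells. In non-plasma cells 10 of 10 members tested were also above 0, against 50.5% of all genes, with a median of 0.17 beside 0.0017 over all genes. There 3 members reached an unadjusted p under 0.05, beside 1.51% of all genes in that direction, and 0 were called.

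Genes of division had no member past the test. In plasma cells 17 of 17 replication genes, 18 of 18 mitosis genes and 10 of 10 replication-dependent histone genes had a log2 fold change above 0, against 49.6% of all genes, with medians of 0.40, 0.28 and 0.44. An unadjusted p under 0.05 was reached by 7, 6 and 5 of them, beside 4.87% of all genes in that direction. *Tyms*, which makes thymidylate for DNA synthesis, was at 26.9, 23.3 and 24.1 CPM in the WT group and 48.3, 52.0 and 34.0 CPM in the DOCK8-deficient group (log2 fold change 0.84, edgeR adjusted p = 0.123). DOCK8-deficient-group recipient 3 was the lowest of its group in the summed level of all 3 lists, at 493 CPM for replication genes against 407 to 489 CPM in the WT group. It was at 1139 CPM for mitosis genes against 742 to 1249 CPM, and at 589 CPM for histone genes against 453 to 658 CPM. The groups thus overlapped in the summed mitosis and histone levels. Without the *Bcl2*-positive plasma cells, 3, 2 and 2 members of the lists reached an unadjusted p under 0.05, and the medians were 0.31, 0.12 and 0.22.

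Of the 15 genes of the plasma cell programme, 1 was called lower (*Herpud1*), beside 0.0747% of all genes. Only 3 of the 15 had a log2 fold change above 0, 5 reached an unadjusted p under 0.05 on the lower side, beside 4.63% of all genes, and the median was -0.11. Without the *Bcl2*-positive cells 2 did so, with a median of -0.07. The 17 genes of ER folding and secretion had a median of 0.00 with none past the test. *Hsp90b1*, the ER chaperone GRP94, was at 6523, 6638 and 6465 CPM in the WT group and 8007, 7375 and 8596 CPM in the DOCK8-deficient group (log2 fold change 0.29, edgeR adjusted p = 0.123), while *Dnajb9*, an ER co-chaperone, had a log2 fold change of -0.40 (edgeR adjusted p = 0.303). *Jchain*, which chose these cells and is given with no test, was at 33256, 39200 and 34591 CPM against 28290, 29355 and 31081 CPM. *Ighm* (-0.23), *Igkc* (-0.03) and *Prdm1*, which encodes the plasma cell regulator BLIMP1 (0.06), did not pass.

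Type I interferon response genes were below 0 in 12 of 13 members tested, with a median of -0.40 and none past the test. An unadjusted p under 0.05 was reached by 5 of them on the lower side, where 4.63% of all genes were. Their summed level was 726 and 876 CPM in WT-group recipients 1 and 2 and 1792 CPM in recipient 3, against 709 to 878 CPM in the DOCK8-deficient group. The list thus stood out in a single WT-group recipient. *Ifi27l2a*, the most abundant of them, followed the same pattern at 244, 372 and 1066 CPM against 262, 245 and 298 CPM.

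**Figure D5:**
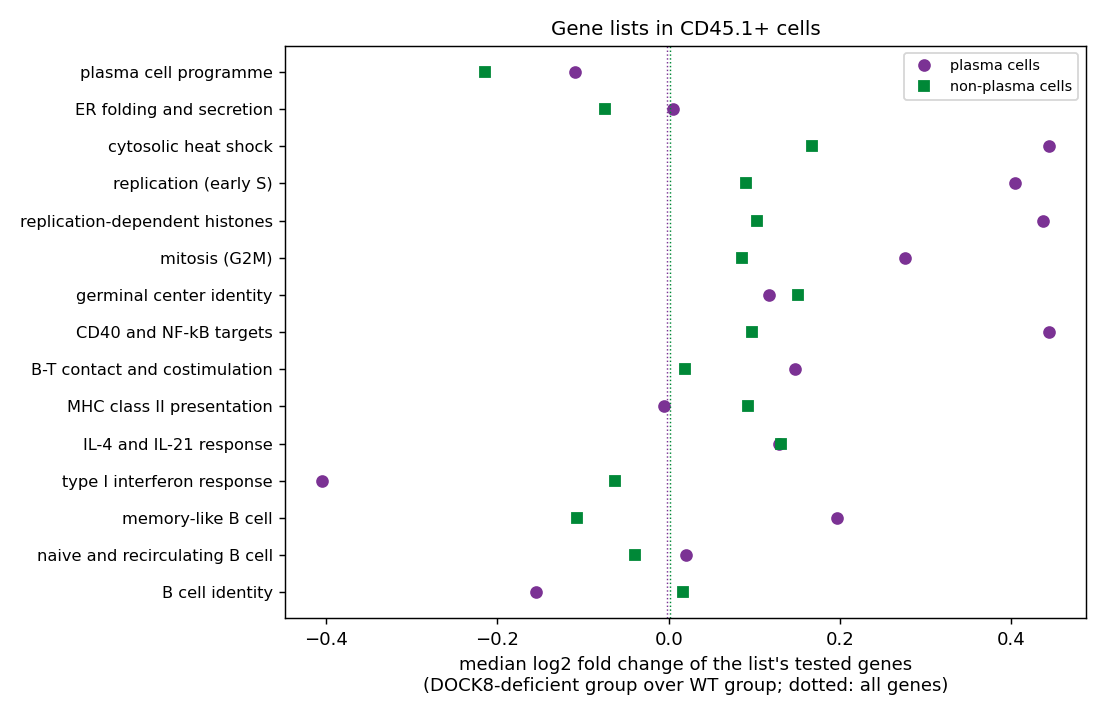
Median log2 fold change (DOCK8-deficient group over WT group) of the tested genes of 15 lists in plasma cells (circles) and non-plasma cells (squares) of the CD45.1+ sort, with dotted lines at the medians of all genes. Cytosolic heat shock, replication and histone genes lie between 0.40 and 0.44 in plasma cells and between 0.09 and 0.17 in non-plasma cells.

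The non-plasma bystander cells, 1631 in the WT group and 1751 in the DOCK8-deficient group, had no called gene. Of 9284 genes tested by edgeR 0 passed, 287 (3.09%) reached an unadjusted p below 0.05, 140 (1.51%) of them above and 147 (1.58%) below 0, and DESeq2 also called 0. The gene with the smallest p was *Pakap*, at 44.5, 41.0 and 36.4 CPM in the WT group and 71.3, 53.7 and 56.5 CPM in the DOCK8-deficient group (log2 fold change 0.59, SE 0.134, edgeR adjusted p = 0.9995). *Mir155hg*, the host transcript of miR-155, was at 17.7, 21.6 and 21.5 CPM against 27.1, 27.6 and 32.3 CPM. *Dusp6*, a phosphatase of ERK, was at 7.59, 8.04 and 8.10 CPM against 15.4, 11.8 and 13.6 CPM. The groups did not overlap in these 3 genes, nor in 8.39% of all genes.

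*Lrrcc1*, *Ifi30*, a lysosomal thiol reductase of antigen processing, and *Kif3c* had log2 fold changes of 0.58, 0.29 and 1.08 among the 12 genes of smallest p in non-plasma cells. *Srm*, which encodes spermidine synthase, *Rgcc*, *F630028O10Rik*, *Ly6c2* and the agouti gene *a* had -0.40, -0.59, -1.54, -1.93 and -1.36. None passed the test. The groups overlapped in *a* but not in the others, which were chosen by smallest p, nor in 8.39% of all genes.

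*Cd3d* of the T cell receptor complex was also among the 12, at 18.2, 11.8 and 15.6 CPM in the WT group and 7.52, 1.84 and 6.56 CPM in the DOCK8-deficient group. The 15 T cell markers summed to 115 to 207 CPM in the WT group and 49.2 to 139 CPM in the DOCK8-deficient group, and 9 of 10 tested had a log2 fold change below 0. The myeloid marker *Lyz2* was at 77.4, 51.2 and 39.5 CPM against 1.63, 19.5 and 32.8 CPM, while the 12 myeloid markers summed to 325 to 351 and 236 to 330 CPM. Within plasma cells the T cell markers summed to at most 5.97 CPM, with *Cd3g*, *Cd4*, *Cd8a* and *Cd8b1* at 0. Leaving out the 60 cells with UMIs from 2 or more T cell markers left the count of calls at 0 in non-plasma and 11 in plasma cells.

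GC identity genes had log2 fold changes above 0 in the non-plasma cells in 15 of 15 members, against 50.5% of all genes, with a median of 0.15 beside 0.0017 over all genes, and none passed. *Bcl6*, the master regulator of the GC, was at 70.8, 76.1 and 61.9 CPM in the WT group and 95.8, 86.4 and 76.7 CPM in the DOCK8-deficient group (log2 fold change 0.32, SE 0.116, edgeR adjusted p = 0.9995, unadjusted p = 0.0165). *S1pr2* and *Fas* had log2 fold changes of 0.25 and 0.18.

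For signals of T cell help, 17 targets of CD40 and NF-kB were tested in non-plasma cells, with a median of 0.10, and 15 genes of B-T contact, with a median of 0.02. None was called. *Cd40* was at 44.2 ± 5.61 CPM against 54.7 ± 8.25 CPM (SD, n = 3 each, log2 fold change 0.32), while *Nfkbid*, an atypical inhibitor of NF-kB, was at 27.8, 20.3 and 25.1 CPM against 23.5, 9.93 and 12.1 CPM (log2 fold change -0.69). *Cd83*, a marker of the light zone, and *Cxcr4*, a receptor of the dark zone, had log2 fold changes of 0.05 and 0.15. The 11 genes of class II presentation were all above 0, with a median of 0.09, and those of the response to IL-4 and IL-21 had a median of 0.13.

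Lists that the study chose on these same libraries are no independent evidence of a direction. The 20 genes of its LZ4 list had a median of 0.09, the 20 of LZ2 a median of 0.09 and the 20 of Activated/Memory a median of -0.06, with 0 called. *Apoe*, an LZ4 gene, was at 187, 394 and 93.1 CPM in the WT group and 462, 236 and 413 CPM in the DOCK8-deficient group, with overlap (log2 fold change 0.75, SE 0.380, edgeR adjusted p = 0.9995). *Ighd*, a marker of naive B cells, was at 192, 137 and 172 CPM against 176, 118 and 234 CPM. The 11 genes of DOCK8 and its pathway had a median of 0.06.

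Over all bystander cells together, none of 9630 genes passed edgeR's test (0 called), while 432 (4.49%) reached an unadjusted p below 0.05, 166 (1.72%) of them above and 266 (2.76%) below 0. DESeq2 called 2. *Bcl2* had the smallest p, at 90.4, 137 and 66.2 CPM in the WT group and 25.3, 24.7 and 29.3 CPM in the DOCK8-deficient group (log2 fold change -1.87, SE 0.235, edgeR adjusted p = 0.0736). It was followed by *Trf*, at 11.9, 18.0 and 24.0 CPM against 2.67, 8.25 and 4.55 CPM. *Slpi*, a secreted protease inhibitor and a gene of the plasma cell list, was at 762, 1343 and 1483 CPM against 643, 698 and 736 CPM. The plasma cell programme as a whole had a median of -0.38 here, with 0 of 15 genes above 0, against 51.3% of all genes, beside the lower mean share of plasma cells in this group.

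Of the other genes with the smallest p over all cells, *Gm19585*, *Hbp1*, *Lmf1*, *Slain1* and *Ly6c2* had log2 fold changes of -1.36, -0.63, -0.84, -0.66 and -1.44. *Ccnb1ip1*, *Dusp6*, *Mir155hg* and *Lrrcc1* had 1.30, 0.98, 0.61 and 0.68. None passed the test, and in none did the groups overlap, as in 8.62% of all genes. Of the sex-linked genes, *Rbm3*, a cold-inducible RNA-binding protein on the X chromosome, was at 783, 777 and 793 CPM against 455, 648 and 609 CPM (log2 fold change -0.46, edgeR adjusted p = 0.933). *Xist* was at 1107 to 1163 CPM against 1090 to 1277 CPM.

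Whether the group difference itself differed between plasma and non-plasma cells was tested with the recipient as a block. By edgeR 0 of 9277 genes passed, and 480 of 9285, sex-linked genes included, reached an unadjusted p below 0.05. DESeq2 called 1. *Bcl2* had the smallest p, with a difference of log2 fold changes of -2.44 (SE 0.399, edgeR adjusted p = 0.0592), and *Ptma* had 0.57 (SE 0.124, edgeR adjusted p = 0.604). The 11 calls are thus not shown to be particular to plasma cells. In the bystander non-plasma cells *Ptma* and *Stmn1* had log2 fold changes of -0.03 and 0.16, and *Bcl2l11* and *Plac8* -0.33 and -0.34.

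Between CD45.1+ and CD45.2+ non-plasma cells of the same recipients, the group difference differed in 0 of 9769 genes apart from sex-linked ones by edgeR and in 0 by DESeq2, with 553 of 9781 at an unadjusted p under 0.05. *Xist* was called. It was at 1345, 1392 and 1305 CPM in bystander cells of the WT group and 1556, 1284 and 1384 CPM in those of the DOCK8-deficient group, while CD45.2+ cells had 1389, 1475 and 1304 CPM against 336, 336 and 294 CPM.

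Recipients of the same group also differed from each other. Among the genes with a mean of at least 50 CPM over all bystander cells, *Gm43305*, a processed transcript, varied most within a group, by 8.19-fold in the WT group. It was at 234, 170 and 28.6 CPM in the WT group and 236, 220 and 37.9 CPM in the DOCK8-deficient group, so that recipient 3 was low in both (log2 fold change 0.22, SE 0.685, edgeR adjusted p = 0.982). *Apoe* came next, with 150, 457 and 60.7 CPM against 401, 217 and 353 CPM. *Tnfrsf17*, which encodes the plasma cell receptor BCMA, *Iglv1*, *Selenom*, *Bst2*, *Ifi27l2a*, *Isg20* and *Trp53inp1* were highest in WT-group recipient 3 and differed 2.58-fold to 3.94-fold within a group. That recipient also had the highest share of plasma cells. *S100a6* differed 3.84-fold within the DOCK8-deficient group.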

How the data were processed

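The authors deposited unnormalized counts: UMIs of each gene, and of each hashtag, in every barcode. The submitters' processing notes name Cell Ranger 5.0.1, Seurat 4.0 and the mm10 build. Recipient and group came from the authors' hashtag table. Counts were summed per recipient and tested with edgeR 4.0.16 (quasi-likelihood test, TMM, filterByExpr, Benjamini-Hochberg adjustment) in R 4.3.3, with DESeq2 1.42.0 as the second tool, and plasma cell shares with exact permutation tests (scipy 1.17.1). Whether the 3 mice per group came from separate experiments is not given in the sources used here. The tests were run on simulated counts with a common dispersion for all genes. That check does not cover a recipient that departs from its group, as seen in these data. Alternatives were other size factors, no filter, no immunoglobulin genes, other hashtag, cell and *Jchain* limits, HTODemux (Seurat 5.3.0), cells with 2 or more T cell markers left out, and each recipient left out. No doublet caller was run; the hashtag rule removes doublets between recipients only. The members and lists were chosen with earlier results of these data known. The text names, in each comparison, up to 12 called genes with the largest fold among groups that do not overlap, filled with the smallest p, plus fixed genes, list examples and the 10 genes most variable within a group. Some genes that this rule names are not reported here. Alternatives on cells with *Bcl2* UMIs were chosen after seeing the data. Binomial intervals cover counting error only, at 95%. Gene positions are from GENCODE M21.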

Additional observations from a re-analysis of the deposited data

Results flagged for a closer look

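The group difference of *Xist* in non-plasma cells differed between the CD45.1+ bystander cells and the CD45.2+ partner cells of the same recipients, by 2.17 on the log2 scale (SE 0.0924, adjusted p = 9.17e-10 from edgeR, recipient as block). Its bystander level was 1305 to 1392 CPM in the WT group and 1284 to 1556 CPM in the DOCK8-deficient group, while in partner cells it was 1304 to 1475 CPM against 294 to 336 CPM. It was listed here because this test of the difference itself passed, and the difference rests on the CD45.2+ cells of all 3 recipients of the DOCK8-deficient group. In those non-plasma cells the Y-linked genes summed to 149, 138 and 170 CPM, against 8.94, 15.3 and 8.54 CPM in the CD45.2+ non-plasma cells of the WT group. *Xist* and the Y-linked genes follow the sex of a cell's donor, and the part of donor sex was not tested.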

How the results depend on the processing

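The counts of called genes below are from edgeR unless DESeq2 is named. Over all bystander cells 0 genes were called, and leaving out 1 recipient gave 0 to 1, no filter on low counts 107, DESeq2 2, the 2-fold hashtag rule 1 and HTODemux singlets 1. In plasma cells 11 were called, and leaving out 1 recipient gave 2 to 40, no filter 106, DESeq2 41, the 2-fold rule 7, HTODemux 14 (6 of them among the 11), leaving out the 5% of cells with most UMIs 2, *Jchain* limits of 50 and 200 gave 4 and 4, leaving out plasma cells with a *Bcl2* UMI 0 and those with 3 or more 1. In non-plasma cells (0 called), no filter gave 26 and a *Jchain* limit of 50 gave 1. For the difference between plasma and non-plasma cells (0 called), leaving out 1 recipient gave 0 to 14, no filter 13, HTODemux 2 and DESeq2 1. For the difference between the sorts (0 called), the values were 0 to 6, 30 and 4 for 1 recipient left out, no filter and HTODemux. These 2 fits had the recipient as a block, and without the replicate block 0 and 0 genes were called. In the fits between groups the recipient numbers 1 to 3 of the hashtag table were added as a replicate block after seeing the data, which called 27 genes over all cells, 10 in plasma cells (8 of them among the 11) and 0 in non-plasma cells. Deviations of same-numbered recipients from their group means correlated across genes by 0.36, -0.018 and 0.27 over all cells. Recipients of unlike number had -0.38 to 0.16 there. In plasma cells the 2 ranges were -0.088 to 0.0026 and -0.038 to 0.13, and in non-plasma cells 0.0071 to 0.25 and -0.19 to 0.060. The same-numbered values were not above 0.1 for every pair, so these recipients were taken to share a number only. That does not exclude a pairing. Genes with no call changed sign. Without *Bcl2*-positive plasma cells *Dock8* was at 0.013 and *Igkc* at 0.031, Cxcr4 in plasma cells was at -0.049 by DESeq2, and *Ighd* in non-plasma cells at -0.30 with HTODemux. With 1 recipient left out, log2 fold changes over all cells ran from -0.30 to 0.76 for *Gm43305* and -0.047 to 0.29 for *Cd83*. In plasma cells they ran from -0.24 to 0.089 for *Dock8*, -0.11 to 0.052 for *Igkc*, -0.29 to 1.16 for *Gm43305*, -0.49 to 2.99 for *Apoe*, -0.072 to 0.22 for *Cxcr4* and -0.0097 to 0.095 for *Prdm1*. In non-plasma cells they ran from -0.34 to 0.15 for *Igkc*, -0.18 to 0.30 for *Ighd*, -0.35 to 0.67 for *Gm43305*, -0.025 to 0.24 for *Cxcr4*, -0.10 to 0.21 for *Cd83* and -0.91 to 0.26 for *Prdm1*. The cause of these changes was not tested. With 3 recipients per group, and 74 to 76 plasma cells in the smallest, a missing call does not show that the groups are alike.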
